A study of Homo sapiens with 9 samples.

Results

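The Krüppel-like factors (KLFs) are zinc finger proteins that bind GC-rich and CACCC-containing DNA and switch genes on or off. The 10 genes described here are KLF2, KLF3, KLF4, KLF5, KLF6, KLF7, KLF9, KLF10, KLF11 and KLF13, taken by gene name from a table of read counts on 58735 genes that names 18 KLF genes. RNA was measured in MIA PaCa-2, an established human pancreatic cancer cell line. Cells labelled wild type were kept for 24 h in 0.1% DMSO, the vehicle, in 1 µM SCH772984, an inhibitor of the kinases ERK1 and ERK2, or in 1 µM compound 1, an inhibitor of TBK1 and IKKε. Each condition had 3 libraries, all from this single line, and the labels do not say whether the libraries of a group came from separate cultures. The p-values below therefore measure only the spread between these libraries. The comparisons ask which KLF genes change in RNA level when ERK is inhibited and whether inhibition of TBK1 and IKKε changes the same genes.

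The family divides by the partners its members recruit. KLF2, KLF4, KLF5, KLF6 and KLF7 work largely with acetyltransferases such as p300 and CBP and are mostly described as activators, KLF3 represses through CtBP, and KLF9, KLF10, KLF11 and KLF13 recruit the Sin3A corepressor. Several are immediate early or signal-responsive genes. KLF2 and KLF4 are known targets of the MEK5, ERK5 and MEF2 arm and of growth factor signalling, KLF10 was found as a gene induced by TGF-β, and KLF9 is induced by glucocorticoid and thyroid hormones. In epithelial cancers KLF4 and KLF6 are linked with growth arrest and differentiation, and KLF5 with proliferation.

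Promoters of 8 of the 10 genes were in the RefSeq table used here (GRCh38.p14), with none for KLF3 or KLF10. They are shown for KLF2, KLF4 and KLF9, members whose RNA changed with SCH772984, as the 250 bases before the start that RefSeq annotates, 5′ to 3′ on the strand of the gene. Capitals mark matches on either strand to the CACCC box (CACCC), the GC box (GGGCGG) or the MEF2 consensus.
KLF2, chr19:16324576-16324825, plus strand: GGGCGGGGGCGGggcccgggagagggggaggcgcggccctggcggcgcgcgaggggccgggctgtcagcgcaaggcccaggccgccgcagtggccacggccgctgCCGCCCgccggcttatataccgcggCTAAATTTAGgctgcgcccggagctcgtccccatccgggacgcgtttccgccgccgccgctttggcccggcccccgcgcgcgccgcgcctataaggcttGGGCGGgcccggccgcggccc
KLF4, chr9:107489770-107490019, minus strand: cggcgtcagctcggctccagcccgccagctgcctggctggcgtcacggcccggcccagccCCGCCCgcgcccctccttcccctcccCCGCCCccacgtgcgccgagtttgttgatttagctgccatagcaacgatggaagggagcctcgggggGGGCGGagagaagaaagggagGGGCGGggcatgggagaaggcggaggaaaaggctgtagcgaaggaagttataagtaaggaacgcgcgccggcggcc
KLF9, chr9:70414658-70414907, minus strand: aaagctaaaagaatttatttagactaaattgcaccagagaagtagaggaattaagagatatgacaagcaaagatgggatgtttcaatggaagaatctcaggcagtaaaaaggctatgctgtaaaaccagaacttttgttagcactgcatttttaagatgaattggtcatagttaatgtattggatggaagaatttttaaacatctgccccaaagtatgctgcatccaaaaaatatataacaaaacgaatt
The KLF2 window was 80.0% G and C and held 4 GC boxes and 1 MEF2 match, CTAAATTTAG, which began 120 bases before the start. Its last 9 bases lie within a GENCODE exon of KLF2. The KLF4 window was 69.2% G and C, with 4 GC boxes, no MEF2 match and 2 copies of TGACG, the core of the cyclic AMP response element. It lies inside the GENCODE span of KLF4, in an intron of a transcript that starts further upstream, and 0 of its bases are exonic. The KLF9 window was 32.4% G and C and held none of these motifs and no CArG box. Over 35116 promoter windows of 250 bases the median G and C content was 58%, and 42.6% of windows held a GC box, 54.7% a CACCC box, 21.2% a TGACG, 2.8% a MEF2 match and 1.16% a CArG box. KLF6 (72.4% G and C, 2 GC boxes) and KLF13 (78.8%, 3 GC boxes and 1 CACCC box) lie behind GC-rich windows, while 1 of the 2 windows of KLF5 (40.8%, no GC box) and 2 of the 4 of KLF7 (43.2% and 41.6%) were, like that of KLF9, below the median. These matches are letters in a window and not sites of measured binding.

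Library totals were 9464432 to 10286223 counts with DMSO, 9652741 to 9840769 with compound 1 and 11056977 to 13887859 with SCH772984. Replicate 1 of compound 1 stood apart from the others of its group, with a chi-square per degree of freedom of 11.1 and 8.29 against them, compared with 2.78 between the other 2 libraries. VIM, KRT8, KRT18 and KRT19 were abundant in all 9 libraries, EPCAM was at 0 in all and CDH1 had at most 5 counts. Of blood markers, PTPRC, CD3E and HBB were at 0 throughout and CD14 had 23 to 28 counts with DMSO, 12 to 27 with compound 1 and 9 to 22 with SCH772984, where it was called lower (log2 fold change -1.29, edgeR adjusted p = 0.000955). Of 3 endothelial markers, PECAM1 and VWF had at most 4 counts, while CDH5 had 28 to 40 counts with DMSO, 60 to 63 with compound 1 and 0 to 4 with SCH772984 (log2 fold change -4.79 against DMSO, edgeR adjusted p = 1.77e-11). The 5 fibroblast markers summed to 461 to 510 CPM with DMSO, 472 to 526 with compound 1 and 994 to 1117 with SCH772984, a sum made up mostly of COL1A2. Of the 3 that were tested, COL1A2 was 2.15-fold higher with SCH772984 than with DMSO. COL1A1 (1 to 4 counts with DMSO, 28 to 48 with SCH772984) and PDGFRB (0 to 2 and 64 to 99 counts) were also higher. These 2 passed the filter on low counts only through the SCH772984 libraries, so the filter fixed their direction. DCN and LUM never exceeded 1 count. The 7 epithelial and MIA PaCa-2 markers summed to 5924 to 6297 CPM with DMSO, 5480 to 6555 with compound 1 and 3155 to 3499 with SCH772984, where KRT8, KRT18 and VIM were called lower. These shifts accompanied the SCH772984 results below, and their part in them was not tested.

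In vehicle-treated cells KLF2 RNA was the most abundant of the 10 per unit of gene length, at 132 ± 9.25 TPM (a share of the library's RNA corrected for gene length, mean ± SD, n = 3). KLF6 followed at 82.3 ± 0.838 TPM. At these levels KLF2 lay above 94.0% and KLF6 above 90.2% of the 22276 genes with a count in the DMSO libraries. KLF10 at 35.6 ± 1.29 TPM and KLF4 at 32.5 ± 2.08 TPM came next, with overlapping libraries, and then KLF3 at 21.3 ± 0.283 TPM. The other members were low. KLF13 (3.83 ± 0.408 TPM) overlapped KLF11 (3.46 ± 0.777 TPM), and KLF9 (1.78 ± 0.623 TPM) overlapped KLF5 (1.56 ± 0.256 TPM). KLF7, a factor known from neurons, had 0 counts in all 6 DMSO and compound 1 libraries and 1 count in SCH772984 replicate 1. A count of 0 allows up to 0.0771 to 0.123 TPM here (3 counts in a library, counting error only). The same order held with compound 1, from KLF2 at 128 TPM and KLF6 at 82.6 TPM down to KLF5 at 1.71 TPM.

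SCH772984 lowered KLF2, KLF4 and KLF10 and raised KLF9, while KLF3, KLF5, KLF6, KLF11 and KLF13 did not pass the test (edgeR's quasi-likelihood test, Benjamini-Hochberg adjusted p under 0.05). KLF2 showed the largest change, 6.40-fold lower. KLF4 and KLF10, from different branches of the family, fell by similar factors, 2.18-fold and 2.16-fold, and KLF9 rose 4.78-fold. Of the 9 members that passed the filter on low counts (KLF7 did not), 3 were lower and 1 higher, where 35.5% of the 13834 genes tested were called lower and 37.2% higher. At these background rates the counts do not mark the members out. In whole cultures, fewer cells that express a gene and less of its RNA per cell cannot be told apart, and all values are relative to the library total.

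KLF2, a factor that in endothelium and T cells is associated with quiescence, was measured at 82.8, 72.4 and 77.8 CPM (counts scaled to the TMM-normalized library total) in the DMSO libraries and at 10.8, 11.7 and 13.2 CPM with SCH772984. The groups were far apart, the lowest DMSO library lying well above the highest SCH772984 library. The log2 fold change was -2.68 ± 0.097 (SE; 95% interval -2.87 to -2.48, edgeR adjusted p = 2.11e-27). The gene (ENSG00000127528) lies at chr19:16324817-16327874 on the plus strand of GRCh38.

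KLF4, one of the reprogramming factors and a regulator of epithelial differentiation, was at 37.1, 33.9 and 32.8 CPM with DMSO and at 17.04, 14.2 and 15.8 CPM with SCH772984. All treated libraries lay below all vehicle libraries. The log2 fold change was -1.12 ± 0.11 (SE; 95% interval -1.34 to -0.90, edgeR adjusted p = 1.76e-12). The gene (ENSG00000136826) lies at chr9:107484852-107490482 on the minus strand.

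KLF10, a repressor in the TGF-β response that lies on chromosome 8, was at 42.8, 42.2 and 39.6 CPM with DMSO and at 19.0, 19.8 and 18.1 CPM with SCH772984. Here, too, the groups did not overlap, and the libraries of each group were close to each other. The log2 fold change was -1.11 ± 0.10 (SE; 95% interval -1.31 to -0.91, edgeR adjusted p = 1.48e-13).

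KLF9, a hormone-induced factor that binds the basic transcription element, was low in vehicle-treated cells, at 3.71, 1.89 and 2.43 CPM, and was at 12.7, 14.5 and 11.2 CPM with SCH772984. These values rest on 36, 17 and 22 counts with DMSO and on 153, 177 and 166 counts with SCH772984. Every treated library was above every vehicle library. The log2 fold change was 2.26 ± 0.21 (SE; 95% interval 1.83 to 2.68, edgeR adjusted p = 3.83e-13). The gene (ENSG00000119138) lies at chr9:70384597-70414624 on the minus strand.

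The members that did not pass the test differ in how tightly these libraries bound their change. KLF6, a growth-suppressing factor in several tissues, was at 149, 148 and 145 CPM with DMSO and at 137, 140 and 143 CPM with SCH772984. All 3 treated libraries were below the vehicle libraries, but by little (log2 fold change -0.05, 95% interval -0.18 to 0.08, edgeR adjusted p = 0.478). KLF3, the CtBP-binding repressor, was at 38.8 to 39.4 CPM with DMSO and 30.9 to 39.4 CPM with SCH772984, and KLF13, known from T cells, at 9.16 to 11.2 and 9.80 to 12.2 CPM. KLF3 had a log2 fold change of -0.09 (95% interval -0.29 to 0.10, edgeR adjusted p = 0.374), and KLF13 one of 0.13 (95% interval -0.18 to 0.44, edgeR adjusted p = 0.44). These 3 intervals stay well short of a 2-fold change in either direction. KLF11, the closest relative of KLF10, was at 5.37, 5.12 and 3.42 CPM with DMSO and at 3.56, 3.76 and 3.71 CPM with SCH772984. Its groups overlapped (log2 fold change -0.32, 95% interval -0.80 to 0.16, edgeR adjusted p = 0.231). KLF5, a factor of proliferating epithelium, was at 1.55 CPM with SCH772984 and 1.77 CPM with DMSO on average, and its interval of -0.89 to 0.53 on the log2 scale was the widest among the tested members.

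**Figure D1:**
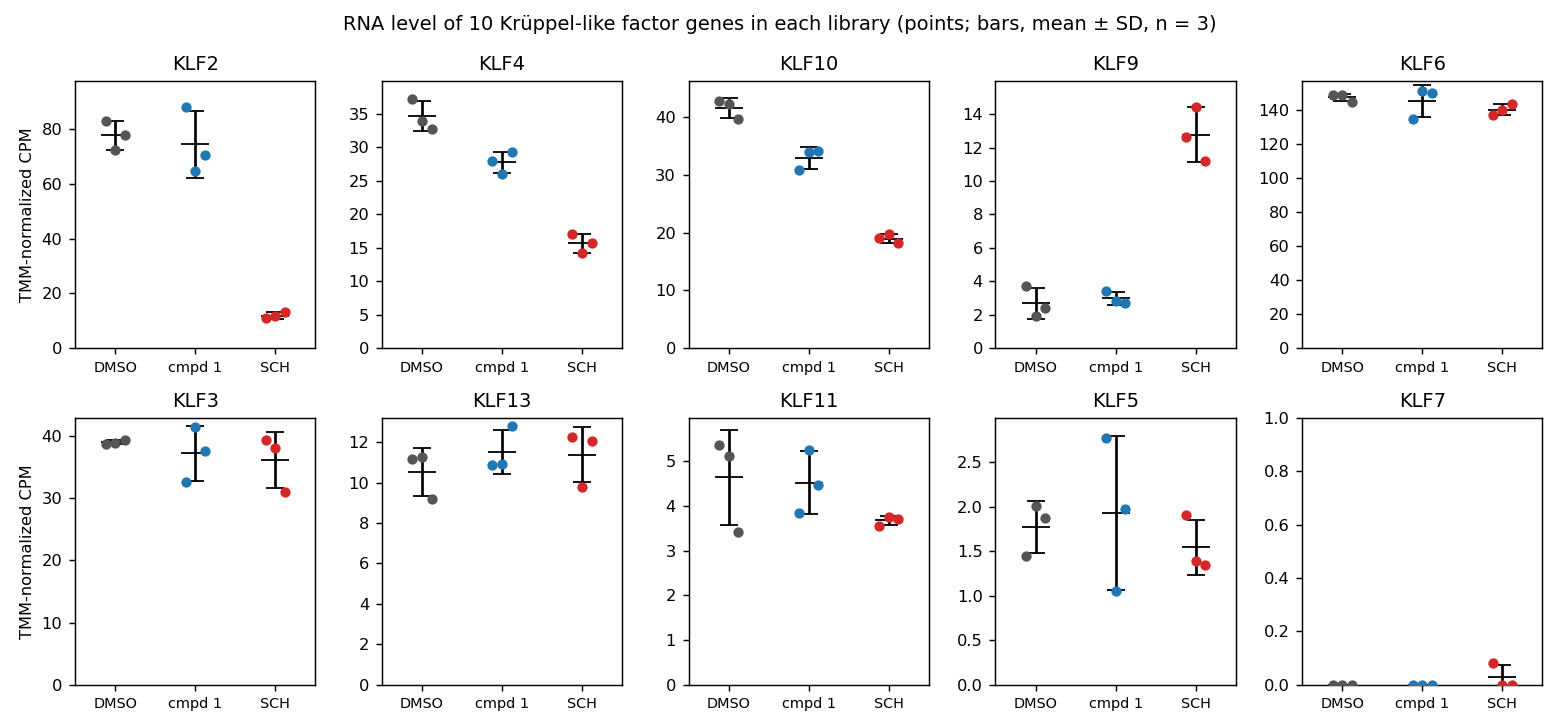
TMM-normalized CPM (vertical axis, linear from 0, a separate scale in each panel) of the 10 KLF genes in each library, by treatment (cmpd 1, compound 1; SCH, SCH772984); points are libraries and bars the mean ± SD (n = 3). KLF2, KLF4 and KLF10 are lower and KLF9 is higher in all 3 SCH772984 libraries than in any DMSO library, while KLF7 has 1 count in 1 library.

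With SCH772984 the make-up of the summed RNA of the 10 members changed along with its size. This sum is not that of all KLF genes. It leaves out KLF16, at 83.1 TPM with DMSO and 45.0 TPM with SCH772984, and KLF15, at 4.15 and 13.2 TPM. The summed level of the 10 genes was 314 ± 12.4 TPM with DMSO and 177 ± 6.11 TPM with SCH772984 (SD, n = 3). KLF2 went from 42.0 ± 1.54% to 12.2 ± 1.25% of this sum, and KLF6, whose own level was 83.6 ± 1.27 TPM, went from 26.2 ± 0.901% to 47.2 ± 1.14% and became the most abundant member. The shares of KLF10 (11.3% and 9.81%) and KLF4 (10.3% and 8.86%) differed less, but were lower in every SCH772984 library than in any DMSO library. With compound 1 they were 9.66% and 8.86%, also lower in every library than in any DMSO library. KLF9 rose from 0.560% to 5.10% of the sum. In the order of the 10 members by level with SCH772984, KLF6 was followed by KLF2 (21.6 TPM), KLF3 (21.1 ± 3.28 TPM), KLF10 (17.4 ± 1.26 TPM) and KLF4 (15.7 ± 1.55 TPM), whose neighbouring libraries overlapped. KLF9 stood next at 9.07 ± 1.39 TPM, above KLF13 at 4.43 ± 0.503 TPM and KLF11 at 2.94 ± 0.104 TPM, both of which had exceeded it with DMSO. KLF2 lay above 76.6% and KLF9 above 64.6% of the 26048 genes with a count in the SCH772984 libraries, compared with 94.0% and 41.8% in the DMSO libraries. The gene sets differ, as the deeper SCH772984 libraries counted more genes. KLF11 (49.7% and 50.7%) and KLF5 (40.3% and 41.9%) thus also lay above more genes with SCH772984, although their mean TPM was lower. These shares are a description and were not tested.

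**Figure D2:**
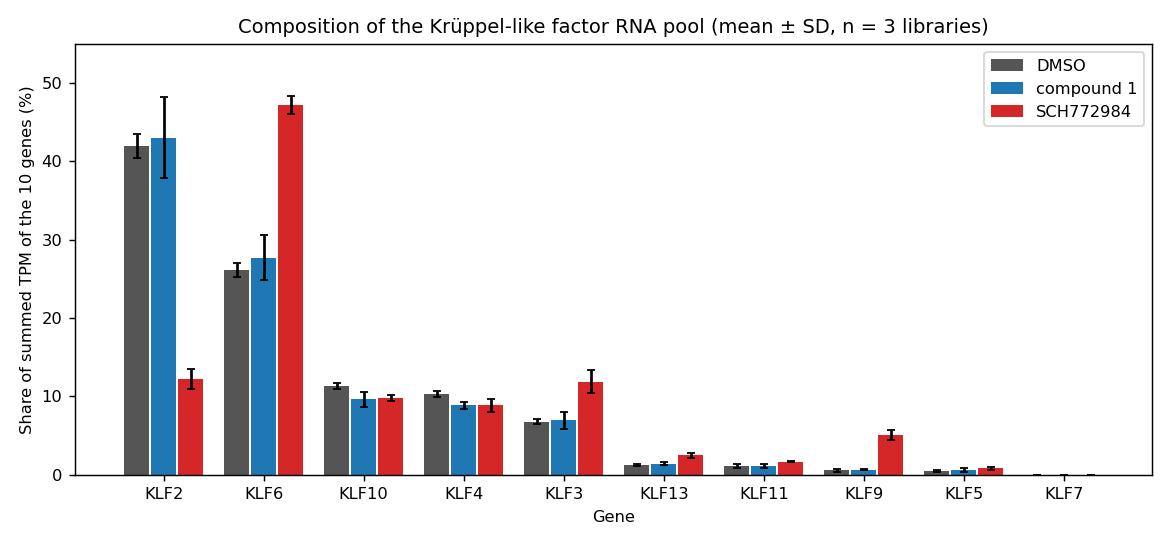
Share of the summed TPM of the 10 KLF genes (vertical axis, percent) taken by each gene with DMSO, compound 1 and SCH772984; bars are means and error bars SD of 3 libraries. KLF2 is the largest share with DMSO (42.0%) and compound 1 (43.0%), and KLF6 with SCH772984 (47.2%).

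Compound 1 gave no call among the members. edgeR called 0 of the 9 tested members higher or lower after adjustment, and DESeq2 also called 0, although it gave KLF5, KLF9 and KLF11 no adjusted p. Of all 12849 genes tested, 0.49% were called higher and 0.374% lower. At an unadjusted p under 0.05, 0 members were higher and 2 were lower, KLF4 and KLF10, where 7.35% of all genes were higher and 7.69% lower. The same pair had all 3 compound 1 libraries below all 3 DMSO libraries, as did 12.1% of all genes.

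KLF4 was at 27.9, 26.04 and 29.3 CPM with compound 1, under the lowest DMSO library of 32.8 CPM. Its log2 fold change was -0.30 ± 0.10 (SE; 95% interval -0.52 to -0.09, edgeR adjusted p = 0.165). Without the compound 1 library that stood apart, replicate 1, KLF4 passed the test, at -0.31 with an edgeR adjusted p of 0.0489. The size of the KLF4 change was thus almost the same with and without that library. KLF16, FOSL1 and SPRY2 also gained a call in that fit, and the share of all genes called in it is not given here. KLF10 was at 30.8, 34.0 and 34.2 CPM, under the lowest DMSO library of 39.6 CPM. Its log2 fold change was -0.32 ± 0.09 (SE; 95% interval -0.52 to -0.12, edgeR adjusted p = 0.126), and without replicate 1 its adjusted p was 0.0552. The other tested members overlapped between compound 1 and DMSO. KLF2 spread more widely with compound 1, at 88.3, 64.8 and 70.5 CPM, the highest value being that of replicate 1 (log2 fold change -0.04, 95% interval -0.27 to 0.18, edgeR adjusted p = 0.886). KLF9 was at 3.41, 2.84 and 2.70 CPM (log2 fold change 0.16, 95% interval -0.46 to 0.79, edgeR adjusted p = 0.846). The 95% intervals of KLF3 (-0.27 to 0.17), KLF6 (-0.16 to 0.15) and KLF13 (-0.18 to 0.47) stay within a 2-fold change in either direction on the log2 scale, as do those of KLF11 (-0.52 to 0.48) and KLF5 (-0.64 to 0.92). The summed level of the 10 genes was 298 ± 4.04 TPM, and KLF2 and KLF6 made up 43.0 ± 5.18% and 27.7 ± 2.88% of it.

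**Figure D3:**
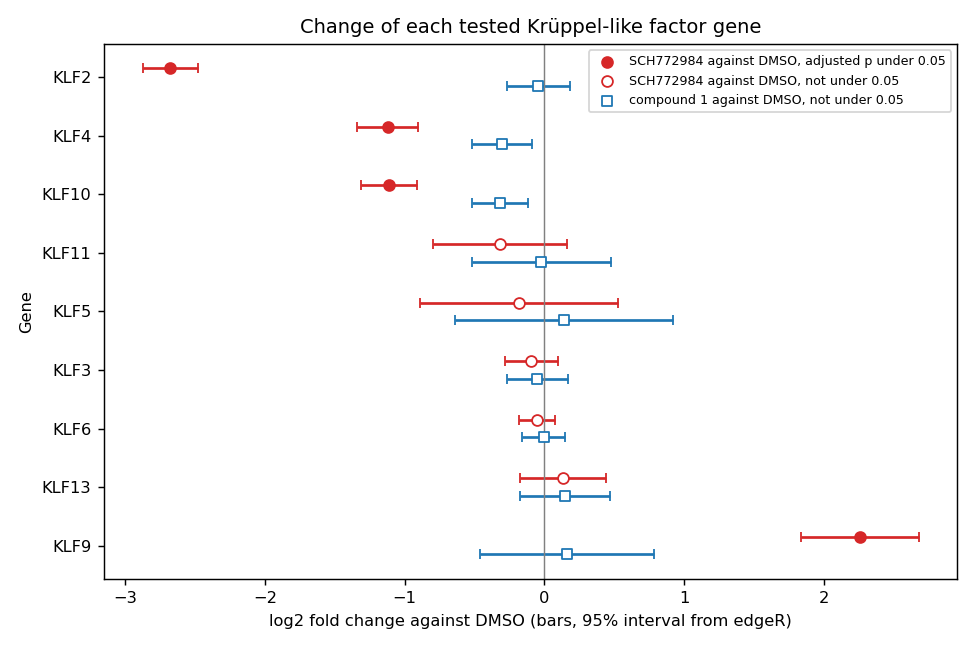
Log2 fold change against DMSO (horizontal axis) with its 95% interval from edgeR for the 9 tested KLF genes, with SCH772984 (circles) and compound 1 (squares); filled symbols have an adjusted p under 0.05. The 4 filled points are KLF2, KLF4 and KLF10 below 0 and KLF9 above it, and both sets of changes are measured against the same 3 DMSO libraries.

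Because both inhibitors were compared with the same DMSO libraries, they were also compared with each other. Relative to compound 1, SCH772984 lowered KLF2, KLF4 and KLF10 and raised KLF9, so that 3 of the 9 tested members were lower and 1 higher, where 32.6% of the 13863 genes tested were lower and 33.7% higher. KLF2 differed by -2.63 ± 0.13 on the log2 scale (edgeR adjusted p = 4.93e-13) and KLF9 by 2.11 ± 0.20 (edgeR adjusted p = 1.16e-08). KLF4 was 1.75-fold and KLF10 1.72-fold lower than with compound 1 (edgeR adjusted p = 7.77e-06 and 5.08e-06). For these genes, the SCH772984 and compound 1 libraries did not overlap. KLF11 had all 3 SCH772984 libraries below the compound 1 libraries without passing the test (log2 fold change -0.28, edgeR adjusted p = 0.287), and KLF3, KLF5, KLF6 and KLF13 differed by -0.03, -0.31, -0.04 and -0.01 (edgeR adjusted p = 0.833, 0.469, 0.704 and 0.977).

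The table names 8 more KLF genes, of which KLF15 and KLF16 were tested. KLF1, KLF8, KLF12, KLF14, KLF17 and KLF18 had at most 3 counts in any library. KLF15, a glucocorticoid-induced factor of muscle and liver metabolism, was at 3.45 ± 0.984 CPM with DMSO and 10.3 ± 0.650 CPM with SCH772984 (log2 fold change 1.59 ± 0.20, edgeR adjusted p = 2.38e-09). With compound 1 its log2 fold change was -0.05 (edgeR adjusted p = 0.951). KLF16, a Sin3A-binding relative of KLF9 and KLF13, was at 71.5 ± 4.42 CPM with DMSO and 36.3 ± 5.54 CPM with SCH772984 (log2 fold change -0.95 ± 0.09, edgeR adjusted p = 4.53e-13). KLF16 was at 73.0, 75.0 and 66.6 CPM in the DMSO libraries and at 66.6, 46.8 and 49.2 CPM with compound 1, the highest of which (replicate 1) equalled the lowest DMSO library at these digits, with a log2 fold change of -0.38 ± 0.12 that did not pass the test (edgeR adjusted p = 0.129). It did pass without replicate 1 of compound 1 (-0.56, edgeR adjusted p = 7.37e-06). KLF16 also passed with a replicate block (-0.39, edgeR adjusted p = 0.0195) and with no filter (-0.39, 0.00608), so its result depends on these choices. Among KLFs of the Sin3A-binding branch, KLF9 was thus higher and KLF10 and KLF16 lower with SCH772984, with no call for KLF11 or KLF13.

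The RNAs of genes that act with KLFs were followed in lists written by hand, and their counts with SCH772984 stand against the 37.2% of all genes called higher and 35.5% called lower. The related SP factors bind the same GC boxes. Of 9 SP genes 5 were tested, and with SCH772984 SP3 (log2 fold change -0.66, edgeR adjusted p = 1.39e-11) and SP2 (-0.46, 0.00777) were lower and SP6 (0.92, 0.0253) was higher. SP1 (-0.14, adjusted p = 0.0747) and SP4 (-0.25, 0.137) were not called, although SP1 was called lower with no filter (0.0475) or without SCH772984 replicate 3 (0.028) and SP4 without DMSO replicate 3 (0.0175). SP2 lost its call when scaled by library size alone (adjusted p = 0.0972). SP6 rests on 6 to 33 counts a library and lost its call with DESeq2 (adjusted p = 0.0733) and without DMSO replicate 1 (0.211), DMSO replicate 3 (0.0977) or SCH772984 replicate 1 (0.069). It passed the filter on low counts only with the SCH772984 libraries included, and was not tested for compound 1 against DMSO.

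All 8 cofactor genes were tested. CTBP2, which encodes a CtBP corepressor, was 2.07-fold lower with SCH772984 (edgeR adjusted p = 6.64e-17), and CTBP1 (log2 fold change -0.41), the deacetylase HDAC2 (-0.42) and SIN3A (-0.32) also fell, while SIN3B rose (0.26, edgeR adjusted p = 0.00112). SIN3A lost its call with library size alone (adjusted p = 0.0689), and under that scaling the acetyltransferase genes EP300 and CREBBP were called higher (0.31 and 0.29), against log2 fold changes of 0.13 and 0.12 without a call under TMM. They were also called higher where at least 10 counts were required in every library (edgeR adjusted p = 0.00578 for EP300 and 0.0115 for CREBBP), and EP300 without DMSO replicate 3 (0.0401). Scaling by library size alone moved the median change of all genes by 0.17 on the log2 scale. Relative to compound 1, where 33.7% of all genes were called higher and 32.6% lower, 3 cofactor genes were higher (SIN3B, EP300 and CREBBP) and 4 lower (CTBP2, HDAC2, CTBP1 and HDAC1), of which CTBP1 (adjusted p = 0.088) and HDAC1 (0.252) lost their call with library size alone, HDAC1 also where at least 10 counts were required in every library (0.0692). Of 6 ubiquitin ligases of KLF proteins, WWP1, known to act on KLF2 and KLF5, fell by 0.75 and SMURF1 by 0.74 on the log2 scale with SCH772984 (edgeR adjusted p = 7.42e-10 and 1.40e-11), and the other 4 were not called.

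In the ERK5 and MEF2 arm, 4 of 6 genes were tested. MAPK7, which encodes ERK5, was at 18.4 CPM with DMSO and 17.4 CPM with SCH772984 (log2 fold change -0.05, edgeR adjusted p = 0.722), and MEF2A was at 0.05 (0.708). MEF2D was higher (0.55, edgeR adjusted p = 4.55e-08), as was the ERK5 kinase gene MAP2K5 (0.37, 0.0256). The MAP2K5 call was lost with DESeq2 (adjusted p = 0.0594), with no filter (0.0702) and without DMSO replicate 2 (0.157), DMSO replicate 3 (0.0517) or SCH772984 replicate 2 (0.187). Of 9 genes known as KLF targets in other cells, 5 were tested and all were called with SCH772984. SMAD7 (2.72), CDKN1A (1.72), which encodes the cell cycle inhibitor p21, and PDGFA (1.11) were higher, and CCND1 (-0.70), which encodes cyclin D1, and LGALS3 (-0.34) were lower (edgeR adjusted p at most 2.38e-05). These 5 went in both directions, with a median of 1.11 against 0.03 over all genes, and most of the genes tested were called with SCH772984. The endothelial KLF2 targets THBD, NOS3 and S1PR1 had at most 8 counts in any library and were not tested.

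The ERK output genes, a list of negative feedback regulators and transcription factors, served as the measure of ERK inhibition beside these changes. All 11 tested genes were lower with SCH772984 (DUSP5, DUSP6, SPRY2, SPRY4, SPRED1, ETV4, ETV5, EGR1, FOSL1, PHLDA1 and IER3), with a median log2 fold change of -3.51. SPRY4 went from 233 to 1.99 CPM, while PHLDA1 went from 252 to 133 CPM, the smallest change of the list. The fall of KLF2 lay between PHLDA1 (-0.89) and DUSP6 (-6.82), the ends of this list. DUSP6 had at most 1 count with SCH772984 and passed the filter through the DMSO libraries. KLF4 and KLF10 lay between PHLDA1 and SPRY2 (-1.27), the smallest changes of the list. The list was chosen with earlier results known, and its range is wide. Genes outside it, such as KLF16 (-0.95), CTBP2 (-1.05) and AURKB (-2.24), also lay in that range, so it does not mark out KLF2, KLF4 and KLF10. With compound 1 edgeR called 0 of the 38 tested genes in these 6 lists, and DESeq2 called 0. At an unadjusted p under 0.05, 4 were higher and 3 lower, where 7.35% of all genes were higher and 7.69% lower. Without replicate 1 of compound 1, FOSL1 (-0.27, edgeR adjusted p = 0.0106) and SPRY2 (-0.21, 0.0284) were called lower, as were KLF4 and KLF16. These calls stand without the share of all genes called in that fit. The median change of the ERK output genes with compound 1 was 0.02 on the log2 scale.

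**Figure D4:**
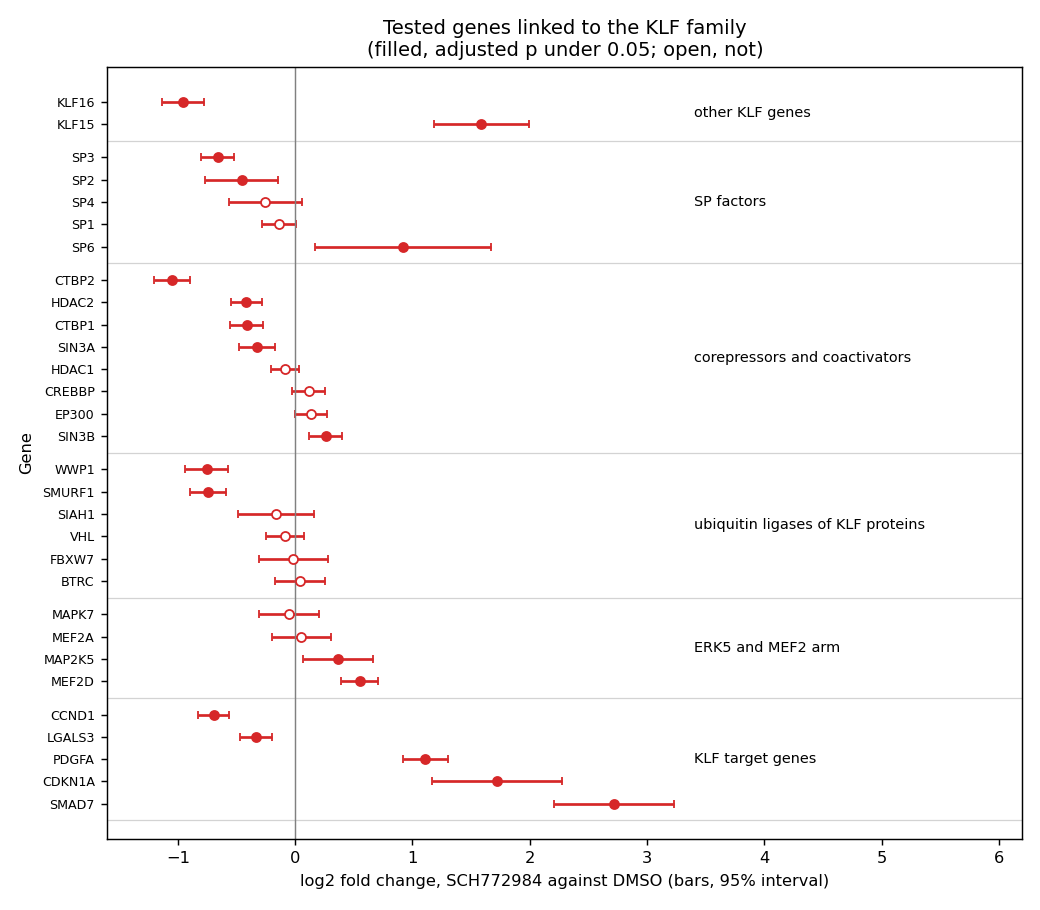
Log2 fold change of SCH772984 against DMSO (horizontal axis) with its 95% interval for the tested genes linked to the KLF family, grouped by list; filled points have an adjusted p under 0.05. SP3, CTBP2, WWP1, SMURF1, CCND1 and KLF16 lie below 0, and KLF15, MEF2D, PDGFA, CDKN1A and SMAD7 lie above it.

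Genes with the pattern most like that of KLF2, which fell most, and of KLF9, which rose, were sought among 9956 protein-coding genes with a mean of at least 5 CPM, by Pearson's r of log2 CPM over the 9 libraries. The 9 libraries are 3 groups of 3, so the points are not independent, and no test was made. AURKB (r = 0.999), which encodes the mitotic kinase Aurora B, SLC45A4 (0.999) and SLCO4A1 (0.998) were closest to KLF2. AURKB went from 153 ± 2.83 to 31.8 ± 2.24 CPM with SCH772984. As many as 2038 genes (20.5%) had an r over 0.95 with KLF2. TMEM143 (0.994), IL1RAPL1 (0.992) and ZBTB25 (0.991) were closest to KLF9, for which 591 genes (5.94%) passed 0.95. ZBTB25 went from 11.1 ± 1.77 to 29.9 ± 2.42 CPM with SCH772984.

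KLF3 shares 688 bases with KLF3-AS1 on the opposite strand, which had 0 to 2 counts with DMSO, 6 to 9 with compound 1 and 10 to 18 with SCH772984. Whether counting used strand is not given in the sources used here, so reads in those bases could have been assigned to either gene. The genes that overlap KLF7, KLF11 and KLF13 had 0 counts in all libraries. The 10 KLF pseudogenes in the table, 4 of them copies of KLF2, had 9 counts in all over the 9 libraries, 6 of them on KLF4P1 and 0 on those of KLF2.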

How the data were processed

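RNA-seq libraries of MIA PaCa-2 cells were made and sequenced by Novogene. The authors deposited 1 table of raw read counts per gene, without normalization. The submitters' processing notes name HISAT2 2.0.5, featureCounts 1.5.0-p3 and hg38, and the strand setting is not given in the sources used here. Libraries were grouped by their labels. Each pair of groups was compared in a fit of its own 6 libraries with edgeR 4.0.16 (TMM, filterByExpr with a minimum count of 10 and a minimum total count of 15, robust quasi-likelihood test) in R 4.3.3, with Benjamini-Hochberg adjustment over all genes tested. The standard error was the log2 fold change divided by the square root of F. TMM factors over all 9 libraries gave the CPM printed, and counts with the deposited gene lengths gave TPM. All members, the called genes of hand-written lists and the 3 genes most like the members with the largest rise and the largest fall were named. The members and lists were chosen with earlier results of these data known.

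Each choice was then changed in turn: scaling (library size alone, RLE factors), the filter (none, or a minimum of 10 counts throughout), the design (1 fit of the 9 libraries, a replicate block, each library left out), the test (DESeq2 1.42.0), the threshold (an unadjusted p, a 2-fold minimum) and RPKM in place of TPM. On simulated counts the test recovered 86.4% of 198 genes changed 2-fold for SCH772984 against DMSO and 84.1% of 195 for compound 1 against DMSO. For SCH772984 against compound 1 it recovered 84.1% of 195. Of its calls, 5.52%, 6.82% and 5.75% were false, above the nominal 5%. No other genes were changed among the 13560, 12671 and 13596 tested there. That is a far smaller share than was called in the data with SCH772984, so these rates may not hold for its comparisons. At 9464432 to 13887859 counts a library, 3 counts are 0.202 to 0.334 CPM, so a member at 0 is only known to lie under that level. Intervals and limits cover the spread between libraries or counting error, as stated. Promoter sequences came from RefSeq (GRCh38.p14).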

Additional observations from a re-analysis of the deposited data

How the results depend on the processing

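Calls for KLF2, KLF4, KLF10 and KLF9 with SCH772984 against DMSO kept their direction and stayed past the threshold in all 15 alternatives each, with log2 fold changes of -2.76 to -2.50 for KLF2, -1.19 to -0.95 for KLF4, -1.16 to -0.94 for KLF10 and 2.04 to 2.56 for KLF9. Of 90 counts of members under alternatives, 87 were within 1.5 times the main count. The exceptions were members lower with compound 1, 0 in the main test, 2 at an unadjusted p and 0 to 1 when a library was left out (KLF4, without compound 1 replicate 1), and members lower with SCH772984 against compound 1, 3 in the main test and 1 where a 2-fold change was also required. No call reversed. KLF3 and KLF6 with SCH772984 against DMSO, uncalled throughout, had values of 0.08 and 0.12 when scaled by library size alone, which moved the median of all genes by 0.17. KLF6 was also above 0 (0.03) where at least 10 counts were required in every library, and KLF3 reached 0.02 when a library was left out.

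Same-numbered libraries of SCH772984 and DMSO had deviations correlated at 0.0113 to 0.0468, so the replicate numbers were not taken to pair the samples. With the replicate block 1 member was higher and 3 were lower with SCH772984 against DMSO, 0 and 0 with compound 1 against DMSO, and 1 and 3 with SCH772984 against compound 1. KLF16 with compound 1 was called under the block (adjusted p = 0.0195) and with no filter (0.00608). Depth limits KLF5, KLF9 and KLF11, which rest on few counts, and KLF7, which could not be tested.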
